A study of Mus musculus with 18 samples.

Results

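The genes described here mostly encode proteins of the splicing machinery and the RNA binding proteins that steer it. They were chosen by symbol: SF3a and SF3b subunits (Sf3a, Sf3b), snRNP proteins (Snrp), U2AF subunits (U2af), Lsm proteins, Prpf factors, SR proteins (Srsf), hnRNPs (Hnrnp) and numbered Rbm genes, without entries marked as pseudogenes by the suffix -ps. This gave 91 of the 8202 genes in the deposited tables, with 88 in the E2.5 table (7082 genes), 84 in the E3.75 table (6648 genes) and 80 in the E4.5 table (6545 genes). The rule reads symbols and no measured value, but it was set with earlier results of these data known. It also takes genes with other roles, such as Lsm10 for histone mRNA, and the processed pseudogene Snrpert. Of the 91 members, 78 were in all 3 tables, 5 in 2 tables and 8 in 1 table, and none of those in 1 or 2 tables passed the test described below.

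Introns are removed from new transcripts by the spliceosome, which is built anew on each intron from small nuclear ribonucleoproteins (snRNPs). Sm proteins form a ring around most of the spliceosomal RNAs and Lsm proteins a ring around U6, while U2AF and the SF3a and SF3b complexes help U2 to settle on the branch point. SR proteins and hnRNPs bind exons and introns and tune which sites are used, and an embryo in cleavage comes to rely on this machinery for its own transcripts as maternal RNA is lost.

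The study measured polyadenylated RNA of mouse embryos of the CD1 strain with both alleles of Oct4 (Oct4 +/+, called wild type here) or neither (Oct4 -/-, called Oct4 null). Oct4, encoded by Pou5f1, is a transcription factor of pluripotent cells, and the series title asks which genes depend on it in the embryo. Embryos were flushed from the oviduct or uterus at E2.5, E3.75 or E4.5, with no treatment, and each of the 6 groups has 3 libraries, 18 in all. The labels do not say how the null allele was made, and name no other allele or agent. Reads lie mostly near the 3′ ends of transcripts, so these values are gene levels and hold no measure of splicing itself. Levels are in read counts scaled to a library total (CPM).

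Depth is given here as the reads recovered from the CPM values over the genes of each table, not as all reads sequenced. It ranged from 364936 to 1922432 reads per library. Null libraries had the higher median at each stage, at 1917754 against 916720, 1375610 against 576078 and 1314657 against 543033 reads. Pou5f1 RNA was lower in null libraries, with means by stage of 968.3 against 1875, 257.6 against 509 and 111.5 against 230.6 CPM. Whether the deleted part holds these 3′ reads is not given, so this is a limited check of the labels. In every group the third library resembled a blend of its 2 companions. Around the best-fitting blend, at equal depth, it varied 0.963 to 1.22 times as much as sampling alone gives, whereas the same ratio for the first and second libraries was 1.05 to 2.66. If the third libraries are not independent, the p-values below are too small, and values from the first 2 libraries of each group are therefore given beside the main results.

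Other genes that mark cell types differed between genotypes at each stage, though at E4.5 none passed limma. At E2.5 1 of 8 trophectoderm markers measured passed limma (Hand1, higher in null, adjusted p 0.0101), with sums of 2920 to 3316 CPM in wild type libraries against 3290 to 3706 CPM. None of 5 epiblast, 4 primitive endoderm and 3 maternal markers passed there, with sums of 441.2 to 512.7 against 414.6 to 446.4 CPM, 419.9 to 462.5 against 495.4 to 536.1 CPM and 1024 to 1437 against 1076 to 1330 CPM. The primitive endoderm sums were thus all higher in null libraries at E2.5 and, as follows, all lower at the later stages. However, they add 4, 9 and 8 genes by stage and so cannot be compared between stages. Of the 4 genes measured at E2.5, Lamb1 was lower in null at each stage (differences -0.78, -0.98 and -0.98). Col4a1 was higher at each stage (0.40, 0.43 and 0.45). Gata6 was at 0.41, 0.09 and -0.32, and Col4a2 at 0.52, 0.09 and 0.20. At E3.75, of the epiblast markers, 6 of 7 measured passed limma (1 higher, 5 lower in null), with a summed level of 620.7 to 720.3 CPM in wild type libraries against 583.8 to 604.8 CPM. Of the primitive endoderm markers, 6 of 9 passed (1 higher, 5 lower), at 745.4 to 991.1 against 606.9 to 676.7 CPM, and of the trophectoderm markers 1 of 9 (higher), at 6998 to 8216 against 6263 to 7159 CPM. Of 8 markers of maternal cells 3 were measured, all globin genes of blood, and 2 passed (both higher), with sums of 114.7 to 176.6 against 175.9 to 474 CPM. At E4.5 no marker passed limma, and no other gene did. The edgeR test called Spp1, Lama1, Lamb1 and Tdgf1, all lower in null (adjusted p 0.00521, 0.0208, 0.0234 and 0.0264), beside 0.642% of all genes. The sums at E4.5 were 574.0 to 712.6 against 331.6 to 380.9 CPM for the epiblast and 1057 to 1368 against 840.6 to 881.6 CPM for the primitive endoderm. For maternal cells they were 154.7 to 275.4 against 158.2 to 1099 CPM. The part of these shifts in the member values was not tested. In whole embryos, fewer cells of a type and less RNA per cell cannot be told apart.

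At E3.75, the blastocyst stage, 3 of 84 members passed limma at an adjusted p of 0.05, Rbm8a upward and Srsf11 and Hnrnpm downward in null embryos. Over all genes of the stage 8.2% passed, 3.6% upward and 4.6% downward, so the members' 3 calls (1 upward, 2 downward) were no excess over the background. With the first 2 libraries of each group no member passed, while 2.33% of all genes did. The edgeR test on the recovered reads called 3 members (Rbm8a, Srsf11 and Sf3b6) beside 8.3% of all genes, and DESeq2 called 3 of 50 with an adjusted p beside 10.5%. The 3 calls were made among 12 members with an unadjusted p under 0.05 (7 higher, 5 lower), beside 22.8% of all genes. No member passed without wild type library 3, null library 1 or null library 3, and 6 passed without wild type library 2.

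Rbm8a (ENSMUSG00000038374) encodes Y14, a core protein of the exon junction complex that is left on mRNA at spliced junctions. At E3.75 its level was 95.9, 124.0 and 100.7 CPM in the wild type libraries and 158.4, 149.0 and 153.0 CPM in the null libraries. All 3 null libraries lay above all 3 wild type libraries, and the mean was 153.5 ± 4.693 against 106.8 ± 15.01 CPM (SD, n = 3). The difference was 0.53 on the log2(CPM + 1) scale (SE 0.14, 95% interval 0.23 to 0.82, limma adjusted p 0.0224). With the first 2 libraries it was 0.49 with a limma adjusted p of 0.272. The call was also lost without wild type library 3 (limma adjusted p 0.0925), null library 1 (0.0914) or null library 3 (0.0942).

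At E4.5 the order of the Rbm8a libraries was the opposite. Wild type libraries A, B and C held 86.6, 95.01 and 108.4 CPM and null libraries 68.5, 60.9 and 67.8 CPM, again without overlap. The difference at E4.5 was -0.55 (SE 0.17, 95% interval -0.92 to -0.17), with a limma adjusted p of 0.193. At E2.5 the groups overlapped, at 111.3, 141.7 and 143.5 CPM against 124.8, 116.0 and 113.7 CPM (difference -0.15, limma adjusted p 0.587).

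The change of the genotype effect between stages was tested in a fit over all 18 libraries on the 5430 genes in all 3 tables. Between E3.75 and E4.5 the effect on Rbm8a dropped by 1.07 on the log2 scale (SE 0.21, limma adjusted p 0.0334, edgeR adjusted p 0.0134). Rbm8a was the only one of 78 members to pass there, beside 0.0921% of all genes in limma and 0.166% in edgeR, which also called 1 member. Another 9 members had an unadjusted p under 0.05, 10 of 78 in all, beside 14.3% of all genes. The difference kept its sign when any library was left out, from -0.99 to -1.18, but lost the call without E3.75 wild type library 1 or 3, any E3.75 null library, E4.5 wild type library C or E4.5 null library 2 or 3, with limma adjusted p from 0.0565 to 0.142. With the first 2 libraries of each group it was -0.97 with a limma adjusted p of 0.899.

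The genome holds an intronless copy of Rbm8a, Rbm8a2, that is a member in its own right and was counted separately. The first 120 bases of the coding sequence of each are shown for their likeness, although reads lie mostly nearer the 3′ ends (GENCODE M21 transcripts, capitals mark the 2 bases that differ).
Rbm8a: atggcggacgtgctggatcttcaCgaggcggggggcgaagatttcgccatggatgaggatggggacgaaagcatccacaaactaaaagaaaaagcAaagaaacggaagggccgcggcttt
Rbm8a2: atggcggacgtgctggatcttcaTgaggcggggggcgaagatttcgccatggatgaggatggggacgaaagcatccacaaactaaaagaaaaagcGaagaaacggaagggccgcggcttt
Over the 717 bases that align, the copies share 703 (98%), while none of the 951 windows of 50 bases in the last 1000 bases of the Rbm8a transcript occurs in the Rbm8a2 transcript. How the counting treated reads that match both is not given in the sources used here, so the values of both are uncertain.

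Rbm8a2 held 47.0, 71.3 and 55.6 CPM in wild type and 80.9, 75.6 and 87.6 CPM in null libraries at E3.75, without overlap (difference 0.50, SE 0.18, limma adjusted p 0.0985). At E4.5 it held 33.2, 50.4 and 51.5 CPM against 19.2, 28.1 and 35.7 CPM, where 1 null library lay within the wild type range (difference -0.70, limma adjusted p 0.285). The change of its effect from E3.75 to E4.5 was -1.20 (SE 0.32, limma adjusted p 0.105). So neither its stage values nor the change passed, although each had the sign of the Rbm8a value.

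Genes for 3 partners of Y14 in the exon junction complex did not pass limma at any stage. At E3.75 wild type libraries held 405.1 ± 36.34 CPM of Magoh, which pairs with Y14, and null libraries 374.5 ± 18.39 CPM (SD, n = 3; difference -0.11). Eif4a3, the helicase that clamps the complex to RNA, was at 522.1 ± 25.82 against 540 ± 31.4 CPM (difference 0.05), and Casc3, which stabilises it, at 56.43 ± 16.61 against 52.24 ± 5.187 CPM (difference -0.07). For these 3 genes the wild type and null libraries overlapped at E3.75, while at E2.5 the null libraries of Casc3 were all lower (difference -0.48).

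**Figure D1:**
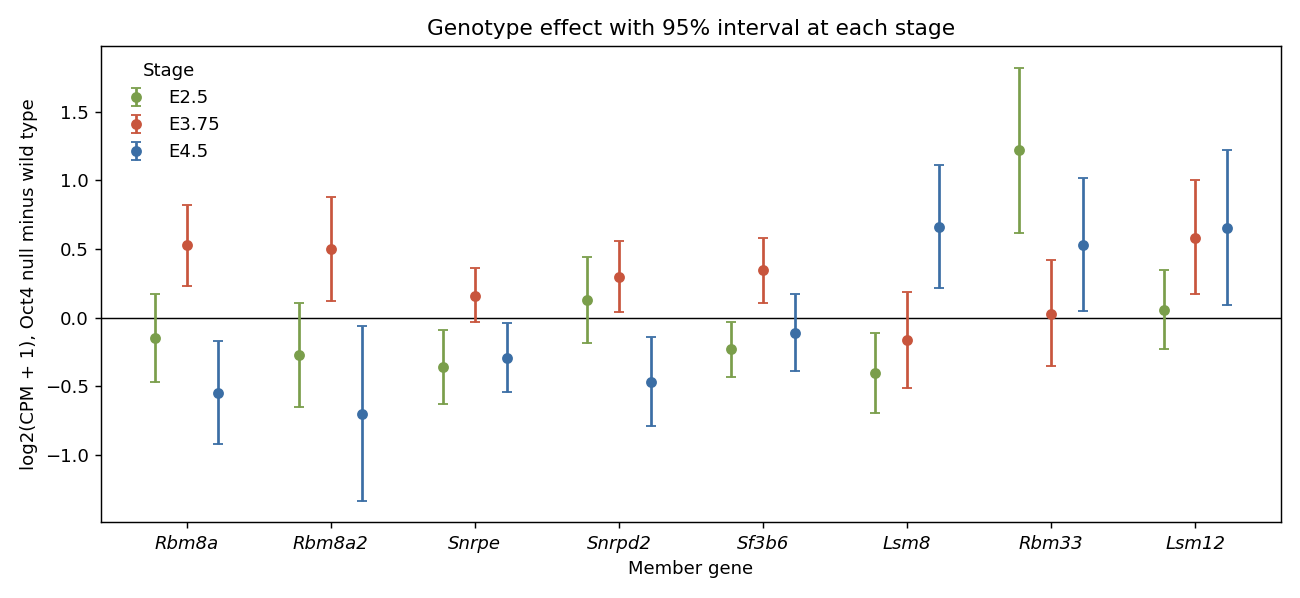
Difference in log2(CPM + 1) between Oct4 null and wild type embryos (points) with the 95% interval of limma (bars) at 3 stages for 8 members. Rbm8a lies at 0.53 at E3.75 and at -0.55 at E4.5, and its copy Rbm8a2 at 0.50 and -0.70.

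Srsf11 (ENSMUSG00000055436) encodes an SR-related protein that bridges splice site factors. At E3.75 it was at 112.8, 51.8 and 78.1 CPM in wild type libraries and at 41.6, 46.5 and 45.2 CPM in null libraries. The null libraries lay close together and below every wild type library, but the wild type libraries were spread widely. The difference was -0.78 (SE 0.22, 95% interval -1.24 to -0.32, limma adjusted p 0.0334), and -0.78 with a limma adjusted p of 0.134 in the first 2 libraries. Without wild type library 1, its highest, it was -0.51 with a limma adjusted p of 0.143. The call was also lost without wild type library 3 (limma adjusted p 0.0978), null library 1 (0.112) or null library 3 (0.0714), with reads thinned to equal depth (0.0693) and in the fit over all 18 libraries (0.129). At E2.5 its difference was -0.15 and at E4.5 -0.47, with overlapping libraries at both stages.

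Hnrnpm (ENSMUSG00000059208) encodes hnRNP M, an abundant nuclear protein that binds introns and regulates alternative exons. In the E3.75 embryos it was at 671.3, 726.8 and 798.5 CPM in wild type libraries and at 585.0, 637.5 and 570.4 CPM in null libraries. The groups did not overlap, the difference was -0.29 (SE 0.09, 95% interval -0.47 to -0.11, limma adjusted p 0.0427), and with the first 2 libraries it was -0.19 (limma adjusted p 0.615). The call was lost under TMM scaling (limma adjusted p 0.0982), in edgeR (adjusted p 0.0758) and in DESeq2 (adjusted p 0.116). Leaving out wild type library 2 or 3 or null library 1 or 3 also ended it, with limma adjusted p from 0.0608 to 0.237. At E2.5 the null libraries were again all lower, at 657.2, 568.6 and 625.2 CPM against 744.0, 679.7 and 689.8 CPM (difference -0.19, limma adjusted p 0.241), while at E4.5 they overlapped the wild type libraries (difference -0.20).

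RefSeq promoter entries, from 250 bases before to 50 after the start, were at hand for 74 members, in 92 windows (build GRCm38.p6). The 250 bases before the start are shown for Srsf11 (the first of its 2 entries, chr3:158036607-158036856, minus strand) and Hnrnpm (chr17:33685459-33685708, minus strand), the called members with an entry, with CG dinucleotides in capitals.
Srsf11: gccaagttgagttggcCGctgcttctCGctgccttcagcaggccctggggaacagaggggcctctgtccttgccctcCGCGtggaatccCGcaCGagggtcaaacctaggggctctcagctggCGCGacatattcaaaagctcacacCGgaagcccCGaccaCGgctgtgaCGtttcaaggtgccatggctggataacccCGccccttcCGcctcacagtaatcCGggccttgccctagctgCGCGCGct
Hnrnpm: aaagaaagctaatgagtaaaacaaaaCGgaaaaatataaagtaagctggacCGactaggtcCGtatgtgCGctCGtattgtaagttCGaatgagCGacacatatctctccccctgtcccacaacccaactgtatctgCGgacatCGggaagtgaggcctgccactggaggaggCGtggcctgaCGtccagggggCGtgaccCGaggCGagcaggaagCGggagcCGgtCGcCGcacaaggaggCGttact
These stretches hold 18 and 19 CG dinucleotides. The ratio of observed to expected CG was 0.6 or more in 87 of 92 member promoters (94.6%), against 75% of 7765 promoters of the genes in the tables and 35.8% of all 32851 promoters. CG-rich promoters are typical of genes that are active in most cell types. The octamer bound by Oct4, ATGCAAAT, searched on both strands, was in 0 of the 92 member promoters, in 1.13% of the promoters of the genes in the tables and in 1.74% of all promoters, which says only that these letters are not in these windows.

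**Figure D2:**
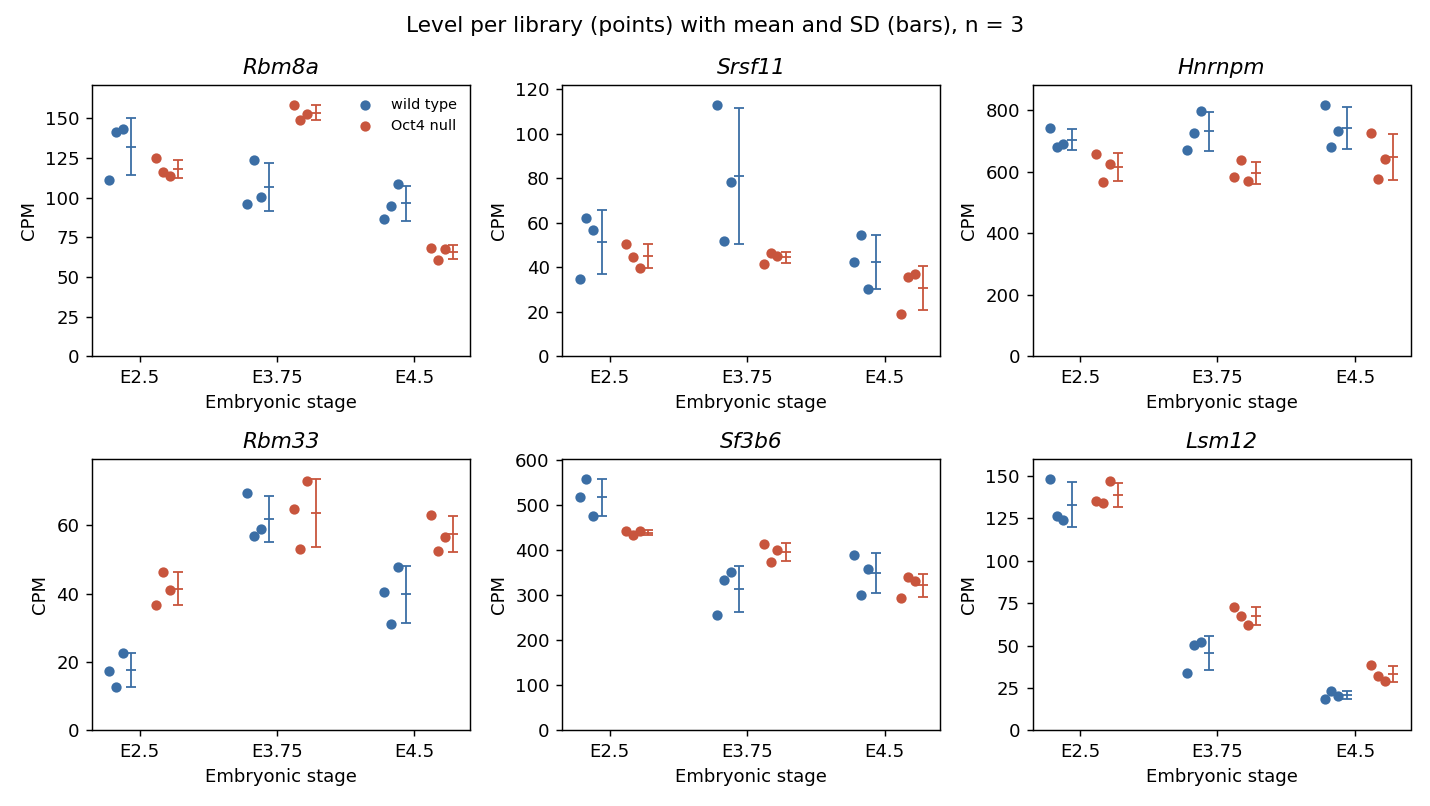
Level in CPM of 6 members in each library (points) with the mean and SD (bars) of wild type (blue) and Oct4 null (red) embryos at 3 stages. The Rbm8a null libraries lie above the wild type libraries at E3.75 and below them at E4.5, and the Srsf11 wild type libraries of E3.75 spread from 51.8 to 112.8 CPM.

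At E2.5 no member of 88 passed limma, where 0.593% of all genes did. An unadjusted p under 0.05 was reached by 15 members (7 higher, 8 lower), beside 20.4% of all genes. The edgeR test called 1 member beside 2.53% of all genes, and DESeq2 called 1 member beside 4.49% of the genes with an adjusted p. In both tests this was Rbm33. Without wild type library 1 limma called 2 members (Rbm33 and Hnrnpul2), and without wild type library 2 it called 3 (Rbm33, Snrpe and Snrpert). Null libraries all lay above the wild type libraries for 10 members and all below for 13, where 13.6% and 14.1% of all genes did.

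Rbm33, an RNA binding protein gene, was at 17.5, 12.7 and 22.7 CPM in wild type and at 36.7, 46.3 and 41.2 CPM in null libraries at E2.5. Every null library exceeded every wild type library, and the difference was 1.22 (SE 0.27, 95% interval 0.62 to 1.82), the largest of the 88 members, with a limma adjusted p of 0.0605. The adjusted p was 0.039 in edgeR, 0.0243 in DESeq2 and 0.00366 in limma over all 18 libraries, whereas the first 2 libraries gave 1.41 with a limma adjusted p of 0.667. At E3.75 the libraries overlapped, at 69.6, 56.9 and 59.0 against 64.7, 53.1 and 73.0 CPM (difference 0.03). At E4.5 they lay apart again, at 40.5, 31.0 and 47.8 against 63.0, 52.5 and 56.6 CPM (difference 0.53, limma adjusted p 0.285). The change of the effect from E2.5 to E3.75 was -1.18 (SE 0.33, limma adjusted p 0.0775).

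No member of 78 passed limma for a change of effect from E2.5 to E3.75, where 1.12% of all genes did, and 8 had an unadjusted p under 0.05, beside 13.9% of all genes. The edgeR test called 1 member, Sf3b6, beside 2.12% of all genes, and limma called 1, Snrpe, without E2.5 wild type library 2. Sf3b6 encodes the small SF3b subunit that contacts the branch point. At E2.5 it was at 518.2, 557.6 and 475.0 CPM in wild type and 442.0, 432.8 and 441.7 CPM in null libraries, the null libraries all lower (difference -0.23, limma adjusted p 0.184). At E3.75 it was at 255.7, 333.7 and 350.6 against 412.7, 373.7 and 400.6 CPM, the null libraries all higher (difference 0.35, limma adjusted p 0.0595, edgeR adjusted p 0.0245). The change of effect was 0.58 (SE 0.17, limma adjusted p 0.087, edgeR adjusted p 0.048), and at E4.5 the libraries overlapped (difference -0.11).

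Snrpe encodes the Sm protein E of the ring around the spliceosomal RNAs. Its null libraries were all lower at E2.5, at 323.8, 343.3 and 354.6 against 526.9, 382.5 and 414.2 CPM in wild type (difference -0.36, limma adjusted p 0.135). They were all higher at E3.75, at 477.4, 433.3 and 436.1 against 383.6, 416.0 and 402.7 CPM (difference 0.16, limma adjusted p 0.308), and all lower again at E4.5, at 386.4, 418.4 and 399.8 against 558.0, 438.2 and 484.2 CPM (difference -0.29, limma adjusted p 0.27). The change of effect from E2.5 to E3.75 was 0.52 (SE 0.16, limma adjusted p 0.106). Snrpert, a processed pseudogene of Snrpe that the symbol rule also takes, is identical to the Snrpe transcript at 276 of 279 aligned bases (98.9%), so reads may be shared and both are uncertain. Its differences were -0.38, -0.06 and -0.24 at the 3 stages.

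Snrpd2, for the Sm protein D2, was the snRNP member with the smallest p at E3.75. It was at 165.5, 172.4 and 208.3 CPM in wild type and 232.4, 235.5 and 201.7 CPM in null libraries, with 1 null library inside the wild type range (difference 0.30, limma adjusted p 0.152). At E4.5 its null libraries lay below the wild type libraries, at 123.3, 129.3 and 120.6 against 184.2, 147.4 and 188.4 CPM (difference -0.47, limma adjusted p 0.193), and the change of effect was -0.76 (SE 0.20, limma adjusted p 0.0933, passing without E4.5 wild type library B).

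At E4.5 no gene passed limma (0%), and so no member of 80. Pou5f1 itself did not pass there, although its null libraries were all lower (difference -1.05, limma adjusted p 0.125, edgeR adjusted p 0.0264). The lack of limma calls at E4.5 therefore does not show a lack of change. An unadjusted p under 0.05 was reached by 12 members (5 higher, 7 lower), beside 15% of all genes. The edgeR test called 0 members beside 0.642% of all genes, and DESeq2 called 1 of 42 members with an adjusted p, Prpf39, beside 4.29% of all such genes. Prpf39, a factor that joins the U1 snRNP, was at 221.0, 139.6 and 201.2 CPM in wild type and at 115.1, 127.0 and 127.3 CPM in null libraries. Its null libraries were all lower, with a difference of -0.58 (SE 0.18), an adjusted p of 0.193 in limma and of 0.0471 in DESeq2, and a difference of -0.54 in the first 2 libraries. Lsm8, which distinguishes the nuclear U6 ring from its cytoplasmic relative, was at 101.3, 62.1 and 102.9 against 139.8, 127.0 and 145.9 CPM, the null libraries all higher (difference 0.66, SE 0.20, limma adjusted p 0.191). At E2.5 it was lower in every null library, at 97.7, 102.0 and 90.7 against 125.4, 130.2 and 128.1 CPM (difference -0.40, limma adjusted p 0.13).

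Among the 78 members in all 3 tables, for 9 the null libraries were all higher, or all lower, than the wild type libraries, in the same direction, at 2 or more stages (11.5%), beside 13% of all genes. Opposite directions at 2 stages were found for 5 members (6.41%), Lsm8, Rbm8a, Rbm8a2, Sf3b6 and Snrpe, beside 6.17% of all genes. These 5 are listed after their values were seen, and Snrpe counts in both groups. So both shares were near the background.

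Of the 9, Lsm12, which carries an Sm-like domain, was at 33.9, 50.1 and 52.1 CPM in wild type and 72.8, 67.6 and 61.9 CPM in null libraries at E3.75 (difference 0.58, SE 0.20, limma adjusted p 0.0767). At E4.5 it was at 18.4, 23.3 and 20.2 against 38.4, 32.0 and 29.0 CPM (difference 0.65, limma adjusted p 0.272). The groups lay apart at both stages, and they overlapped at E2.5 (difference 0.06). Lsm10, a protein of the U7 snRNP that processes histone mRNA, was lower in all null libraries at E2.5, at 13.2, 23.9 and 25.6 against 44.7, 31.1 and 32.4 CPM (difference -0.79, limma adjusted p 0.172). It was lower again at E4.5, at 131.5, 136.2 and 128.8 against 149.2, 143.5 and 141.5 CPM (difference -0.13). Lsm2, part of the nuclear and the cytoplasmic ring, was higher in all null libraries at E2.5 (difference 0.43) and E4.5 (0.21).

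Rbm17, an alternative splicing factor that binds SF3b, was higher in all null libraries at E2.5, at 60.2, 67.6 and 74.0 against 42.5, 44.9 and 50.3 CPM (difference 0.54, limma adjusted p 0.135). It was higher again at E3.75, at 65.9, 56.0 and 63.3 against 35.7, 50.1 and 50.3 CPM (difference 0.45, limma adjusted p 0.177), and overlapped at E4.5. Of the SF3b subunits, Sf3b3 was lower in all null libraries at E2.5 (difference -0.32) and E3.75 (-0.18), and Sf3b5 higher at E3.75 (0.13) and E4.5 (0.27), with limma adjusted p from 0.18 to 0.445. Prpf19, the ubiquitin ligase of the complex named after it, was the Prpf member with the smallest p at E3.75, at 52.7, 43.3 and 53.8 against 39.3, 37.8 and 39.7 CPM (difference -0.35, limma adjusted p 0.329). U2af2, the large U2AF subunit that reads the polypyrimidine tract, was at 3.76, 12.7 and 12.2 against 13.9, 15.3 and 18.1 CPM at E3.75 (difference 0.81, limma adjusted p 0.276), levels that rest on few reads.

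By family, most hnRNP genes had negative differences at E3.75, where 13 of 15 had a lower mean log level in null (1 passed, Hnrnpm). Over all genes 3633 of 6648 were lower at E3.75, 2882 of 6545 at E4.5 and 3662 of 7082 at E2.5. The median hnRNP difference at E3.75 was -0.16 beside -0.04 over all genes. With TMM factors, which bring the median of all genes to 0.00, 9 of 15 were lower and the median was -0.12, so this split rests in part on the scale. Their summed level was 4665, 4937 and 5185 CPM in wild type and 4753, 4708 and 4608 CPM in null libraries at E3.75, ranges that overlapped. At E4.5, 11 of 15 were lower with none passing, the median was -0.12 beside 0.06, and the sums were 4202, 3864 and 4075 against 3603, 3691 and 3697 CPM, without overlap. At E2.5, 9 of 14 were lower, with a median of -0.07 beside -0.02. Hnrnph1, which binds G-rich RNA, came closest to the threshold after Hnrnpm, at 109.1, 122.3 and 144.1 against 93.6, 80.0 and 93.2 CPM at E3.75 (difference -0.48, limma adjusted p 0.0529). Hnrnpf, its close relative, went the other way (difference 0.55, limma adjusted p 0.177), and both were named after their values were seen.

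Over all genes 3015 of 6648 had a higher mean log level in null at E3.75 (median -0.04), and 3353 with TMM factors. The split of the other families at E3.75 was as follows. Of the SF3a and SF3b genes 4 of 7 had a higher mean log level in null (median 0.04), of the snRNP genes 6 of 12 (median -0.00), of the Lsm genes 2 of 9 (median -0.02), of the Prpf genes 5 of 12 (median -0.08), of the SR genes 2 of 8 (median -0.12) and of the Rbm genes 11 of 19 (median 0.03). With TMM factors the Lsm count became 5 of 9 (median 0.02), that of the snRNP genes 7 of 12 (median 0.04) and that of the Rbm genes 13 of 19 (median 0.08), while the SF3a and SF3b, Prpf and SR counts did not change. Apart from Srsf11 and Rbm8a, no gene of these families passed. The Prpf sums lay apart, at 573.5, 611.3 and 597.1 CPM in wild type against 564.2, 550.3 and 547.4 CPM in null libraries, and so did the SR sums, at 1886, 1821 and 1804 against 1727, 1680 and 1791 CPM, both lower in null.

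At E4.5, where no gene passed, the families went different ways. Over all genes 3663 of 6545 were higher in null there (median 0.06), and 3289 with TMM factors (median 0.00). Of the Rbm genes 12 of 17 were higher in null (median 0.23, and 0.18 with TMM factors), and their sums were higher without overlap, at 823.2, 884.2 and 866.5 against 945.4, 913.5 and 924.8 CPM. Of the snRNP genes 8 of 12 were lower (median -0.25, and -0.31 with TMM factors), while their sums overlapped. The sums of the 2 U2AF genes lay apart, at 40.51, 38.78 and 40.43 against 32.88, 33.47 and 28.29 CPM. Lower genes made up 4 of 9 in the Lsm family (median 0.13), 4 of 10 in the Prpf family (median 0.03), 4 of 7 in the SF3a and SF3b family (median -0.11) and 4 of 8 in the SR family (median -0.00), and with TMM factors the last 3 counts became 6, 5 and 5. At E2.5 the medians of the families other than hnRNP and U2AF lay between -0.06 and 0.11, and the snRNP and Lsm sums were lower in null without overlap, at 3232, 3267 and 3178 against 3049, 3063 and 3109 CPM and at 973, 1029 and 991.4 against 965.6, 957.1 and 968.3 CPM. The snRNP sums hold Snrpe (means 441.2 against 340.6 CPM) and its pseudogene Snrpert (264.7 against 202.9 CPM), whose reads may be shared. Together this pair dropped by more than the mean sum (3226 against 3073 CPM), so the snRNP separation rests on it. All differences between summed family levels, at each stage, are descriptions and were not tested. They were summed on the CPM scale only, and some gaps are small, as for SR at E3.75 (lowest wild type 1804, highest null 1791 CPM). Whether the sums stay apart with TMM factors was not computed. Of single genes, null libraries lay wholly above the wild type libraries for 13.6%, 11.4% and 12.2% by stage, and wholly below for 14.1%, 15.7% and 9.99%. The share over sums of other gene groups was not computed.

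**Figure D3:**
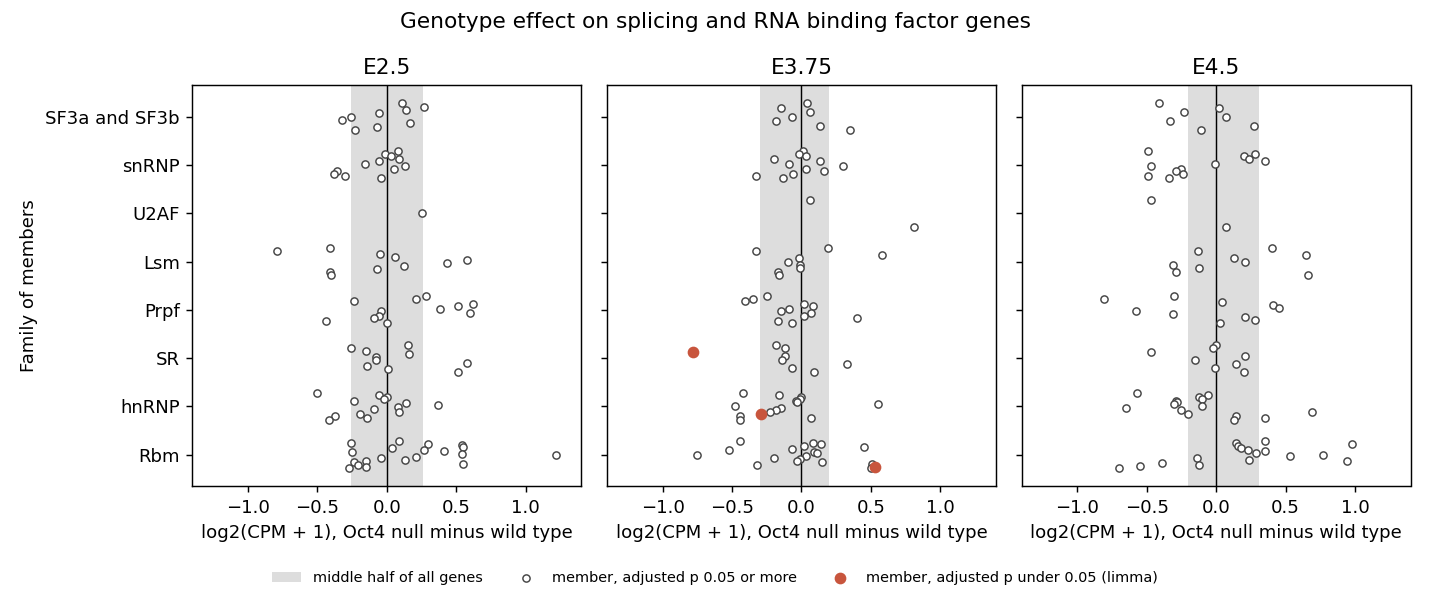
Difference in log2(CPM + 1) between Oct4 null and wild type embryos for every member (circles), by family and stage. Filled circles passed limma, 3 at E3.75 and none at E2.5 or E4.5, and the grey band spans the middle 50% of all genes.

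Over the whole list the median differences of the 3 stages were -0.01, -0.03 and -0.01, beside -0.02, -0.04 and 0.06 over all genes, and the median size of a difference was 0.20, 0.14 and 0.27, beside 0.26, 0.25 and 0.26. With TMM factors the list's medians were 0.01, 0.01 and -0.07, with 0.00 over all genes at each stage, and at E3.75 40 of 84 members were lower in place of 50. The 95% interval lay wholly within a 2-fold change for 71 of 88, 68 of 84 and 55 of 80 members by stage, and within a 1.5-fold change for 39, 47 and 25. For the other members the data leave room for larger changes. At E3.75 null libraries lay all above the wild type libraries for 10 members and all below for 10, where 11.4% and 15.7% of all genes did, and at E4.5 for 8 and 8, where 12.2% and 9.99% did.

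At E2.5 the members summed to 15430 ± 316 CPM in wild type embryos against 15150 ± 247.2 CPM in null embryos (SD, n = 3). The sums at E3.75 were 14370 ± 405.3 against 14160 ± 196 CPM, and those at E4.5 were 12140 ± 523.7 against 11790 ± 147.2 CPM. The libraries of both genotypes overlapped at every stage. The sum was thus 1.54%, 1.44% and 1.21% of wild type reads by stage, but the tables were scaled separately and hold 88, 84 and 80 members, so this is a description of the tables. In the same way, single members had very different courses in wild type embryos. Lsm12 was at 133.0, 45.34 and 20.63 CPM at the 3 stages and the spliceosomal factor Rbm22 at 121.9, 87.12 and 36.20 CPM, whereas Prpf39 was at 50.83, 128.3 and 187.3 CPM and Lsm10 at 36.08, 78.67 and 144.7 CPM. In null embryos these 4 genes, chosen after their values were seen, went the same ways from E2.5 to E4.5, at 138.8 to 33.12, 124.7 to 48.84, 49.52 to 123.1 and 20.90 to 132.2 CPM.

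**Figure D4:**
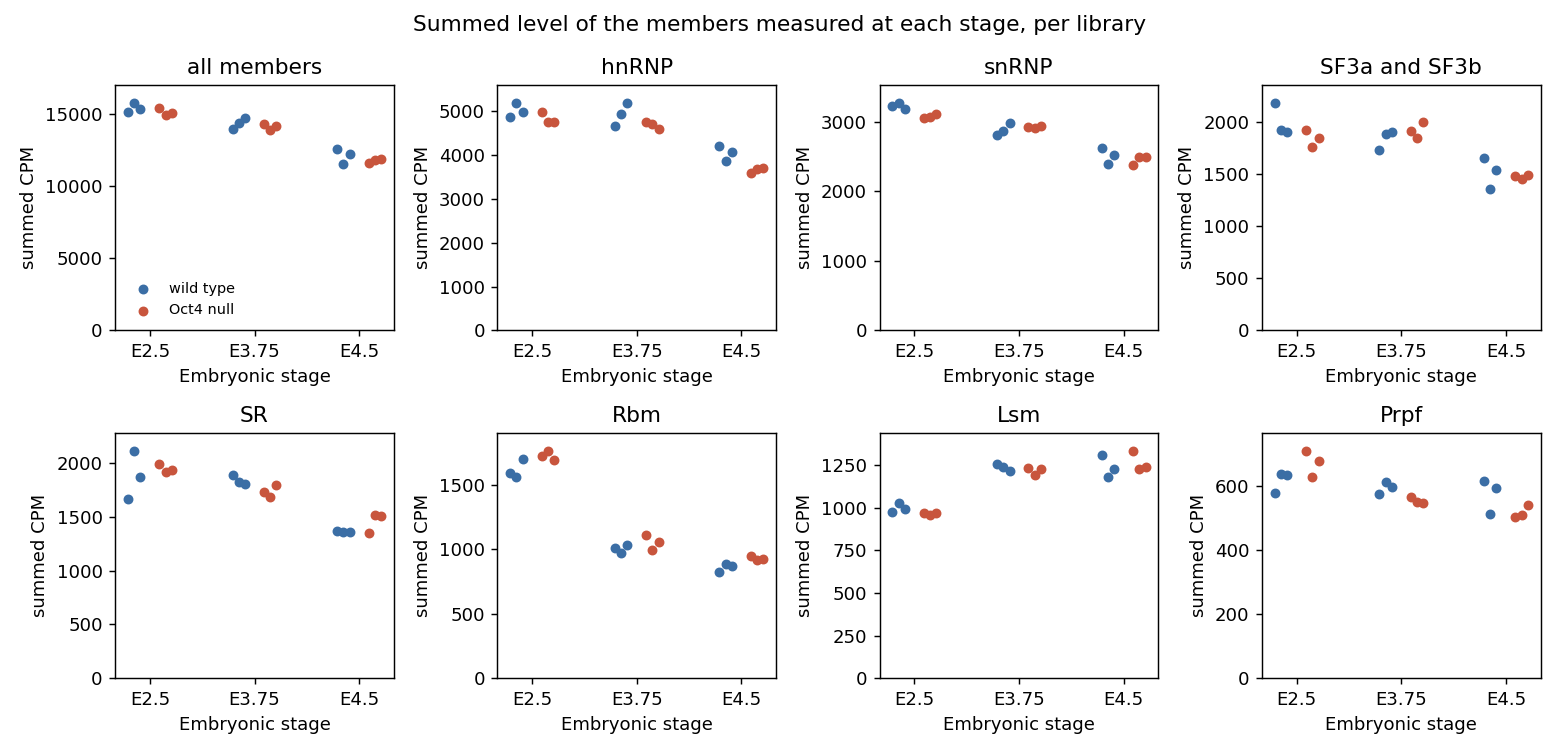
Summed CPM of the members measured at each stage, for all members and for 7 families, in each library (points) of wild type (blue) and Oct4 null (red) embryos. The sums of all members overlap between genotypes at each stage, from 11580 to 15780 CPM. By family, null sums lie wholly below wild type sums for snRNP and Lsm at E2.5, Prpf and SR at E3.75 and hnRNP at E4.5, and wholly above them for Rbm at E4.5. The snRNP separation rests on Snrpe and its pseudogene Snrpert. Of single genes, 14.1%, 15.7% and 9.99% lay wholly below by stage and 13.6%, 11.4% and 12.2% wholly above.

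Genes of the splicing machinery outside the symbol rule, a list of helicases, branch point and step factors, exon junction and export proteins, splicing kinases and regulators and snRNP assembly factors, were counted in the same way. None of 115 passed limma at E2.5, where 0.593% of all genes did, with 19 at an unadjusted p under 0.05 (20.4% of all genes), 2 in edgeR (2.53%) and 2 of 100 in DESeq2 (4.49%). At E3.75 4 of 111 passed (3 higher, 1 lower), where 8.2% of all genes did, with 19 at an unadjusted p under 0.05 (22.8%), 5 in edgeR (8.3%) and 5 of 68 in DESeq2 (10.5%). At E4.5 none of 110 passed, as over all genes (0%), with 13 at an unadjusted p under 0.05 (15%), 0 in edgeR (0.642%) and 2 of 56 in DESeq2 (4.29%). The 4 at E3.75 were Coil, the scaffold of Cajal bodies where snRNPs mature, whose null libraries averaged 298.7 ± 20.24 CPM and wild type libraries 190.5 ± 29.83 CPM (SD, n = 3; difference 0.66), the hnRNP Q gene Syncrip (0.63), the SMN complex gene Strap (0.31) and the helicase gene Ddx39b (-0.40). With the first 2 libraries Coil and Syncrip passed. The list's median differences by stage were -0.03, 0.02 and 0.03, beside -0.02, -0.04 and 0.06 over all genes.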

How the data were processed

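Each stage has its own table, in which the authors deposited CPM values that sum to 1000000 in every library. Per the submitters' processing notes, edgeR and the mm9 build were used. Not given in the sources used here are the aligner, the annotation and how reads were counted. RNA was primed with oligo(dT) and amplified next to the polyA tail, per the labels' protocols. At E4.5 the 3 wild type columns share a header name, and they are lettered A to C. Symbols were matched by Ensembl identifier (GENCODE M21).

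The step between low values gave what 1 read is worth in a library, and 121650 of 121650 CPM values (100%) came out as whole reads with a tolerance of 0.01. Log2(CPM + 1) of every gene of a stage was modelled in limma 3.58.1 (R 4.3.3), with a variance trend, two-sided, Benjamini-Hochberg adjusted over all genes of the table, at a threshold of 0.05. Folds on this scale understate the change of low genes. The recovered reads were tested with edgeR 4.0.16 and with DESeq2 1.42.0 as alternatives. Differences between stages were fitted over all 18 libraries, because the scale of a table drops out of a difference within it. The limma, edgeR and DESeq2 tests within a stage, and the limma test of differences between stages, were checked on simulated reads.

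The members and gene lists were chosen with earlier results of these data known. Members named with values are those that passed limma, the smallest p at E3.75 in each family with no call, those without overlap in 1 direction at 2 or more stages, and the called members or the 3 smallest p for differences between stages. Lsm8, Prpf39, Hnrnph1, Hnrnpf, Hnrnpul2, Rbm22, Rbm8a2 and Snrpert fall outside this rule and were named after their values were seen. Intervals and SDs cover the spread between libraries, and the reads carry no stated molecular identifiers.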

Additional observations from a re-analysis of the deposited data

Results flagged for a closer look

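The effect of the Oct4 null genotype on Rbm8a differed between E3.75 and E4.5 in a test of the difference itself, by -1.07 on the log2(CPM + 1) scale (SE 0.21, limma adjusted p 0.0334), with null libraries all higher at E3.75 and all lower at E4.5. Other values of the same test were -0.97 with the first 2 libraries of each group (limma adjusted p 0.899) and -1.16 in edgeR (adjusted p 0.0134).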

How the results depend on the processing

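Depth and 3 libraries per group limit these results, and at E4.5 DESeq2 gave an adjusted p for 42 of 80 members. The number of members that passed at E2.5 was 1 in the fit over all 18 libraries, 1 in edgeR and 1 in DESeq2, against 0, and 0 to 3 when each library was left out. At E3.75 it was 0 with the first 2 libraries and 1 over all 18 libraries, against 3, and 0 to 6 when each library was left out. At E4.5 it was 3 over all 18 libraries (Lsm8, Prpf39 and Rbm8a) and 1 in DESeq2, against 0. For the change of effect from E2.5 to E3.75 edgeR gave 1 against 0, and leaving out each library 0 to 1. From E3.75 to E4.5 the first 2 libraries gave 0 against 1, and leaving out each library 0 to 2. Of the other splicing genes 2 passed in edgeR at E2.5 (Ptbp1 and Thoc3), against 0, and 2 with the first 2 libraries at E3.75, against 4. Fewer samples enter the fits without libraries, and for the other settings the cause was not tested. Replicate numbers were not used as pairs in the main fits. Same-numbered deviations correlated at 0.04, 0.12 and -0.00 at E2.5 and -0.01, -0.03 and 0.01 at E3.75. Unlike-numbered deviations correlated at -0.09 to 0.09 at E2.5 and -0.02 to 0.03 at E3.75. Such values cannot show whether same-numbered libraries were prepared together. With a replicate block the count was 0 at E2.5 and 2 at E3.75, where Hnrnpm had a limma adjusted p of 0.052, and no block could be fitted at E4.5, where wild type columns carry no number. For 35 differences, those chosen by the naming rule and those of members without overlap at 2 or more stages, 535 other values stayed on their side of the threshold, 16 moved past it and 31 fell short of it, with none changing sign. Only a called difference can fall short, so all 31 belong to Rbm8a, Srsf11 and Hnrnpm at E3.75 and the Rbm8a change of effect from E3.75 to E4.5. Most of the 535 are uncalled differences that stayed uncalled, so they do not show that the calls are firm. The remaining printed differences were not run under every setting. With the first 2 libraries some of them, none called, changed sign. Among members these were Srsf11 at E2.5 (-0.15 to 0.03), Lsm12 at E2.5 (0.06 to -0.03) and Rbm33 at E3.75 (0.03 to -0.10). Among other genes they were Casc3 at E3.75 (-0.07 to 0.03) and the marker Col4a2 at E3.75 (0.09 to -0.08). The alternatives named above, scaling factors, pseudocounts of 0.1 and 5 and a mean of at least 10 CPM were planned, and reads thinned to equal depth were added after seeing the data.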
